A study of Mus musculus with 4 samples.

Results

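Voltage-gated sodium and calcium channels open when the membrane of a cell depolarises, and their genes were compared between wildtype (WT) and *Nrf1*-mutant (Nrf1-CKO) retinas of mouse embryos at E13.5, a stage counted in days of embryonic development. Every gene of the count table whose symbol is Scn, a number and a or b, or starts with Cacna, Cacnb or Cacng, was taken, which gave 39 of 24062 genes. Of these, 13 encode sodium channel subunits and 26 encode calcium channel subunits. The count test could be run on 36 of them, and *Cacna1f*, *Cacng1* and *Scn10a* had too few reads. *Scn2a* is listed under its older symbol *Scn2a1*, which the rule does not match, and its values were added after they were seen.

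The question was which channel classes differ in a retina whose progenitor cells were targeted for deletion of *Nrf1*. The gene encodes a transcription factor known for its control of mitochondrial genes. The study reports loss of Nrf1 protein in the central part of the mutant retina. There were 2 libraries per group, on a mixed C57BL/6 and 129 background. The mutant embryos were Nrf1 f/f;Six3-Cre, with Cre expressed in retinal progenitor cells and exon 4 of the floxed allele as the part that Cre removes. The labels give the genotype of the other group only as wild type. Retinas of several embryos were pooled per genotype, so the p-values rest on 2 libraries of pooled tissue per group. In the count test, the spread of each gene was drawn towards that of all tested genes. *Nrf1* itself had 103 and 105 CPM in the WT libraries and 103 and 100 CPM in the mutant libraries, where CPM is the read count of a gene scaled to the library size with TMM factors. The log2 fold change of the mutant over WT was -0.03 (standard error, SE, 0.07, adjusted p = 0.794 in edgeR's quasi-likelihood test), and a count over the whole gene does not check the loss of 1 exon.

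In a sodium channel, 1 large alpha subunit forms the pore, and beta subunits with an extracellular immunoglobulin fold tune its gating and bind other cells. In a calcium channel, an alpha1 subunit forms the pore, an alpha2delta subunit outside the membrane and a beta subunit inside the cell help to bring it to the surface, and gamma subunits join some channels. Several gamma genes are better known as partners of AMPA-type glutamate receptors. Alpha1 genes fall into the L-type (Cav1), the P/Q-, N- and R-type (Cav2), which drive transmitter release, and the T-type (Cav3), which opens at low voltage. In the retina, ganglion cells are among the first neurons to be born and the only ones that send axons to the brain.

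Nrf1 binds GC-rich DNA that often holds the palindrome TGCGCA, so the annotated promoters of the channel genes were read for that core and for the longer GCGCATGC, on both strands. The longer word shares its GCGCA with the core, so a site can hold both. In the RefSeq promoters of GRCm38.p6, from 250 bases before to 50 bases after each start, 29 of the 39 genes had 39 windows. TGCGCA was present in 1 of them (2.56%), against 7.76% of all 32851 promoters, and GCGCATGC in 0 against 2.71%. The median number of CG pairs was 11 in the channel windows and 7 in all. The 250 bases before the start are shown for 4 windows, 5′ to 3′. *Scn9a* (chr2:66634963-66635212, minus strand) and *Cacna1b* (chr2:24763153-24763402, minus strand) precede pore genes that were lower in the mutant. *Cacna1e* (chr1:154725921-154726170, minus strand) precedes a pore gene that was higher, and its annotated start lies inside the gene as GENCODE draws it. In these 3, capitals mark each CG pair, of which there are 5, 29 and 6. *Cacnb2* (chr2:14823842-14824091, plus strand) is the 1 window with the core, which is in capitals and starts at base 13, and this start too is internal to its gene. A match or its absence describes the letters only, since binding was not measured in these libraries.
Scn9a: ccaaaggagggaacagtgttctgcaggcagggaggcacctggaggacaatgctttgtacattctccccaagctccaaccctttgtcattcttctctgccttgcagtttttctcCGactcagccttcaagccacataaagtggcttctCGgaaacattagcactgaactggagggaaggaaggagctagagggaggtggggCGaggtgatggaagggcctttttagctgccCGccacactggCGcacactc
Cacna1b: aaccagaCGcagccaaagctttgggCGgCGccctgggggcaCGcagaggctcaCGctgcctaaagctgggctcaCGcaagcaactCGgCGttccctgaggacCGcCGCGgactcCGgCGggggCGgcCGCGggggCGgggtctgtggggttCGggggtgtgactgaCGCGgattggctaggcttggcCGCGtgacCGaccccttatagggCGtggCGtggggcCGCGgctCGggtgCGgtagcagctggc
Cacna1e: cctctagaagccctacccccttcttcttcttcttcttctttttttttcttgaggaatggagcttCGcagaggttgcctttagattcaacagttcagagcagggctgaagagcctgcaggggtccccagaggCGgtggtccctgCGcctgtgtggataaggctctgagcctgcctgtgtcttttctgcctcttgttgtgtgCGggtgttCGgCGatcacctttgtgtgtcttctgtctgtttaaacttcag
Cacnb2: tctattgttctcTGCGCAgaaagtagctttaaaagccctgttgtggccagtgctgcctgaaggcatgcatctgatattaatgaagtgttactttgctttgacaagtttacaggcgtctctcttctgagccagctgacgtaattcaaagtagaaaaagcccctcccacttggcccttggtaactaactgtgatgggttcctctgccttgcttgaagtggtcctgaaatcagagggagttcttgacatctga
The first sequence, before a gene that was lower, and the third, before a gene that was higher, hold few CG pairs, and the second, before a gene that was also lower, holds many.

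Depth was 74577660 to 85933945 reads on genes per library. Markers of ganglion cells and of tissues around the retina differed between the groups, and these values stand beside each channel result below. All 8 ganglion cell markers were lower in the mutant, and their summed level was 627 and 712 in WT and 219 and 166 in mutant libraries, in RPKM, which is CPM per kilobase of exon. The study had listed all 8 as lower from these same libraries, so their direction was known when they were chosen and is not independent evidence. Of the 7 progenitor markers, 0 were called by edgeR, DESeq2 or limma and 0 had an unadjusted p under 0.05, with sums of 526 and 566 against 503 and 544 RPKM. Of 6 markers of photoreceptor precursors 3 were lower, and of 5 of amacrine and horizontal cells 2 were lower and 2 higher. Markers of lens (6 of 6), macrophages and microglia (7 of 7), skeletal muscle (8 of 8 tested), periocular mesenchyme (6 of 7), pigment epithelium (4 of 5 tested), endothelium (4 of 5), pericytes and smooth muscle (3 of 5), erythroid cells (2 of 5 tested) and neural crest glia (2 of 5) were higher, and 1 endothelial marker was lower. The lens sum was 51.1 and 139 RPKM in WT and 2880 and 1200 in the mutant. The muscle sum was 3.86 and 1.82 RPKM in WT and 25.7 and 5.23 in the mutant, so that mutant replicate 1 stands apart in both. Among defining markers, *Rpe65* was at 0 in 3 libraries, *Hba-a1* in all 4, and *Ckm* and *Foxd3* in WT replicate 2. In such bulk tissue, fewer cells of a type and less RNA per cell cannot be told apart.

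**Figure D1:**
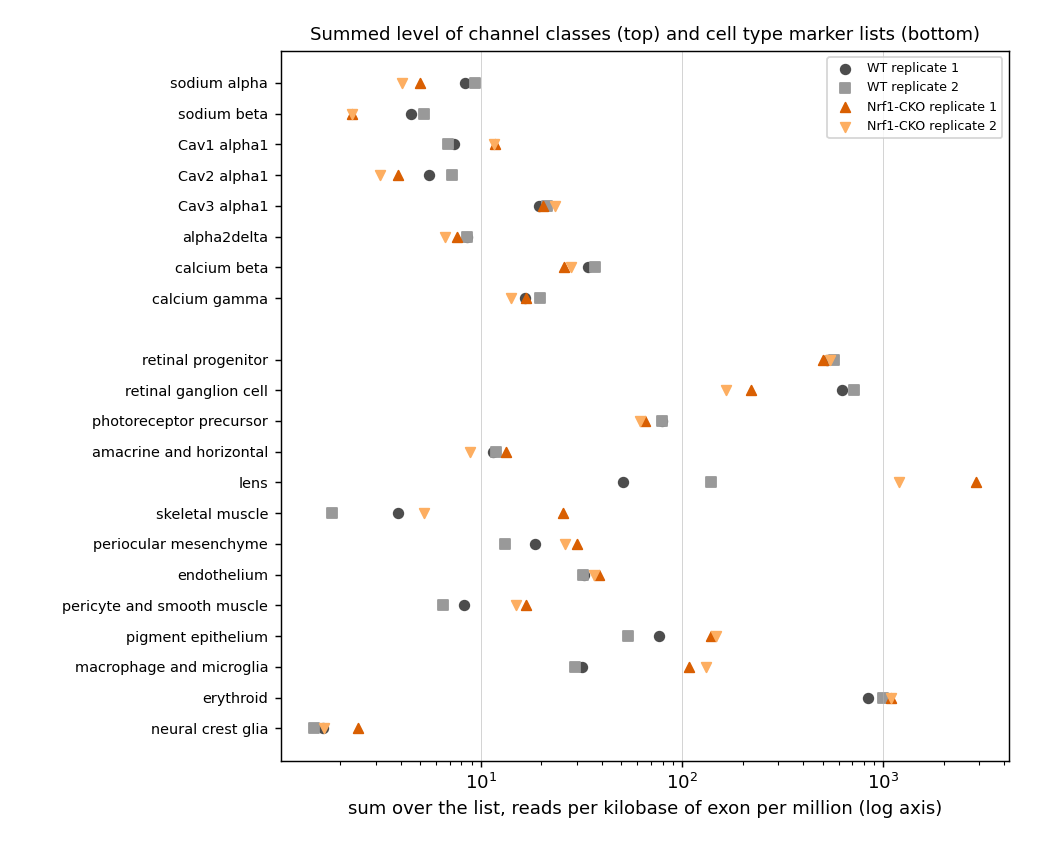
Summed level of 8 channel classes (top) and 13 cell type marker lists (bottom) in each library, in RPKM (CPM per kilobase of exon) on a log axis, with 1 symbol per library. Both sodium classes and the Cav2 class lie lower in both mutant libraries, as does the ganglion cell list, while the Cav1 class and the lens, muscle and macrophage lists lie higher.

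Of the 36 tested channel genes, 10 were called lower in the mutant and 5 higher, under the thresholds of the study, a 1.4-fold change with an adjusted p no higher than 0.2. That is 27.8% and 13.9% of them, beside 8.04% of all 15762 tested genes called lower and 12.8% called higher. The pore and auxiliary genes called lower were *Scn3a*, *Scn9a*, *Scn3b*, *Cacna1b*, *Cacna2d3*, *Cacna2d4*, *Cacnb1*, *Cacnb4*, *Cacng2* and *Cacng5*. Those called higher were *Cacna1d*, *Cacna1e*, *Cacna1g*, *Cacna1s* and *Cacnb2*. Both mutant libraries lay below both WT libraries for 16 genes (44.4%), beside 31.6% of all genes, and above them for 11 genes (30.6%), beside 30.9% of all genes. The median log2 fold change was -0.07 over the 36 genes and 0.0007 over all tested genes. The study listed *Scn3a*, *Scn3b* and *Cacna1b* from these same libraries, so their direction here is not independent evidence of it.

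**Figure D2:**
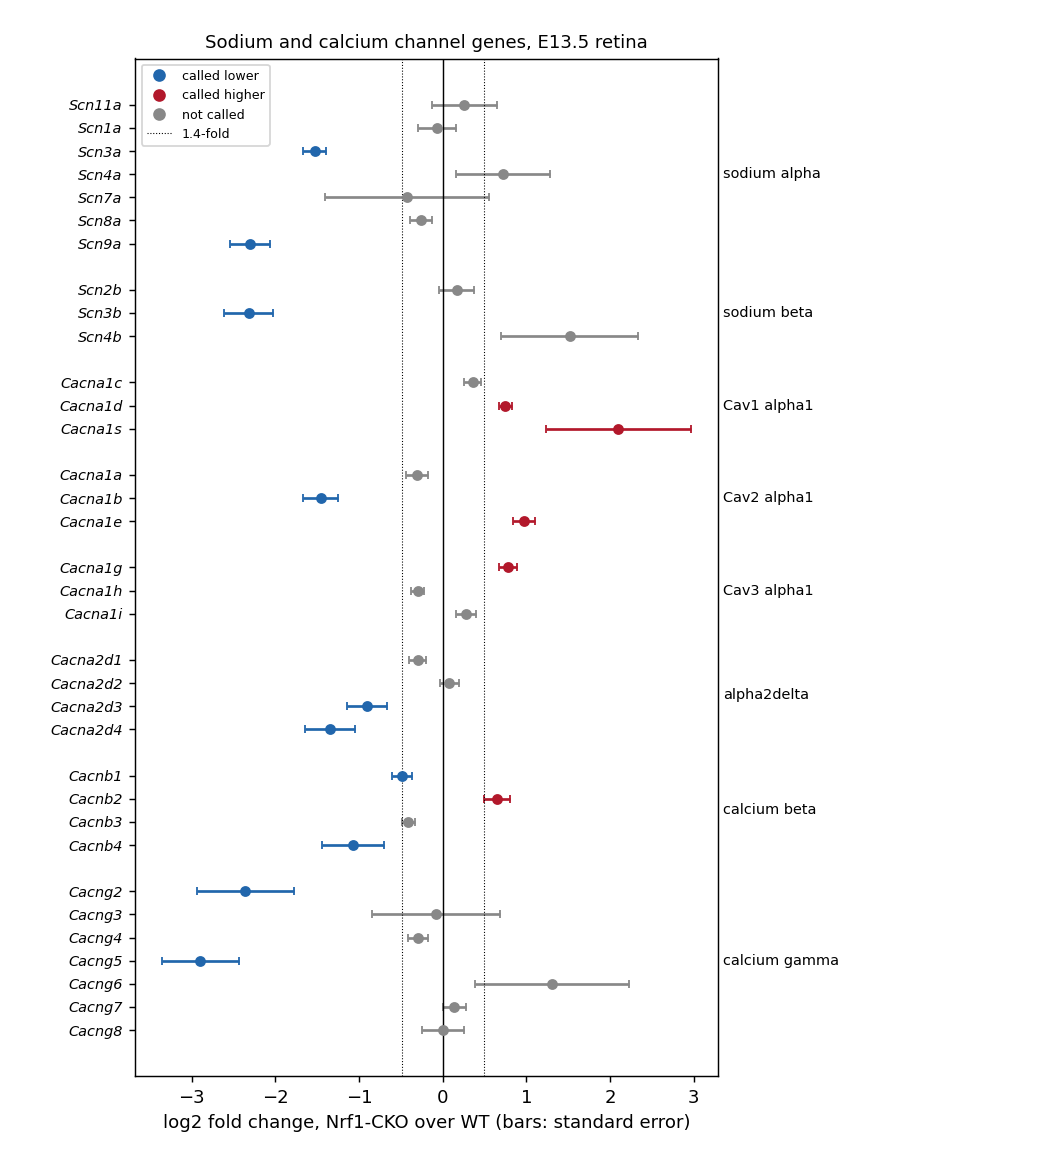
Log2 fold change of the mutant over WT for the tested channel genes described here, grouped by class, with bars of 1 standard error and dotted lines at 1.4-fold. The 10 genes called lower (blue) run from -0.49 for Cacnb1 to -2.90 for Cacng5, and the 5 called higher (red) from 0.65 for Cacnb2 to 2.10 for Cacna1s.

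The sodium channel genes summed to 49.6% of the WT level in the mutant. Their summed level was 12.9 and 14.5 RPKM in WT and 7.23 and 6.34 RPKM in the mutant libraries, with no overlap between the groups. Of the 12 tested, edgeR's quasi-likelihood test called 3 lower and 0 higher, beside 8.04% and 12.8% of all tested genes. In the higher direction, 0 had an unadjusted p under 0.05, DESeq2 and limma called 0, and edgeR's exact test called 2. This class sum is a description, and no test was run on it. A permutation of 2 libraries against 2 cannot reach a p under 0.05.

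Among the alpha genes, *Scn3a*, the main pore gene of the embryonic brain, was the most abundant per length in WT retinas. It had 47.0 and 52.3 CPM in WT and 19.8 and 14.6 CPM in the mutant libraries (4113 and 3879 reads against 1648 and 1205). Both mutant libraries lay well below both WT libraries, a log2 fold change of -1.53 (SE 0.14, adjusted p = 0.000211). *Scn9a*, best known as a channel of peripheral sensory neurons, had 22.3 and 25.4 CPM in WT and 6.30 and 3.40 CPM in the mutant. The log2 fold change was -2.30 (SE 0.24, adjusted p = 0.000319), leaving out 1 library moved it to between -2.81 and -1.92, and limma on the deposited log2 values gave -1.53. *Scn9a* thus stood at 20.3% of its WT level, and *Scn3a* at 34.7%.

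*Scn8a*, the main pore gene of mature axon initial segments and nodes, had 20.3 and 22.8 CPM in WT and 20.0 and 16.0 CPM in the mutant, a log2 fold change of -0.26 (SE 0.13, adjusted p = 0.204). *Scn1a*, a pore gene of inhibitory neurons in the adult brain, had 3.28 and 4.07 CPM in WT and 3.91 and 3.11 CPM in the mutant. For *Scn1a* the groups overlapped, and its log2 fold change was -0.07 (SE 0.23). Several alpha genes were low and had no call. *Scn11a*, a channel of sensory neurons, had 59 to 97 reads per library, and *Scn4a*, the pore gene of skeletal muscle, 25 and 31 reads in WT and 50 and 46 in the mutant. *Scn7a*, a relative that responds to sodium level rather than voltage, had 34, 12, 31 and 3 reads, and *Scn10a* had 0 to 5 reads.

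The shares of the alpha genes in their class are given next, as a description. By RPKM, *Scn3a* made up 45.2% and 45.1% of the class in WT and 32.1% and 28.8% in the mutant libraries. *Scn9a* went from 21.0% and 21.4% to 9.95% and 6.54%, while *Scn8a* went from 15.5% and 15.6% to 25.6% and 24.8%. In WT, *Scn9a* was above *Scn8a*, and in both mutant libraries it was below.

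*Scn3a*, *Scn2a1*, *Scn1a*, *Scn9a* and *Scn7a* lie in this order on chromosome 2 of GRCm38, from the start of *Scn3a* at 65457118 to the end of *Scn7a* at 66784914. *Scn2a1*, a pore gene of excitatory neurons, had 8.29 and 11.1 CPM in WT and 4.25 and 3.55 CPM in the mutant. On the log2 scale it changed by -1.31 (SE 0.19, adjusted p = 0.00159), and by -0.72 with limma on the deposited log2 values. *Scn1a* (66270778 to 66440840), which sits between *Scn2a1* and *Scn9a*, and *Scn7a*, at the end of the cluster, were not called and overlapped between the groups. These genes resemble each other in sequence, so reads that fit more than 1 of them could be missing from the counts.

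**Figure D3:**
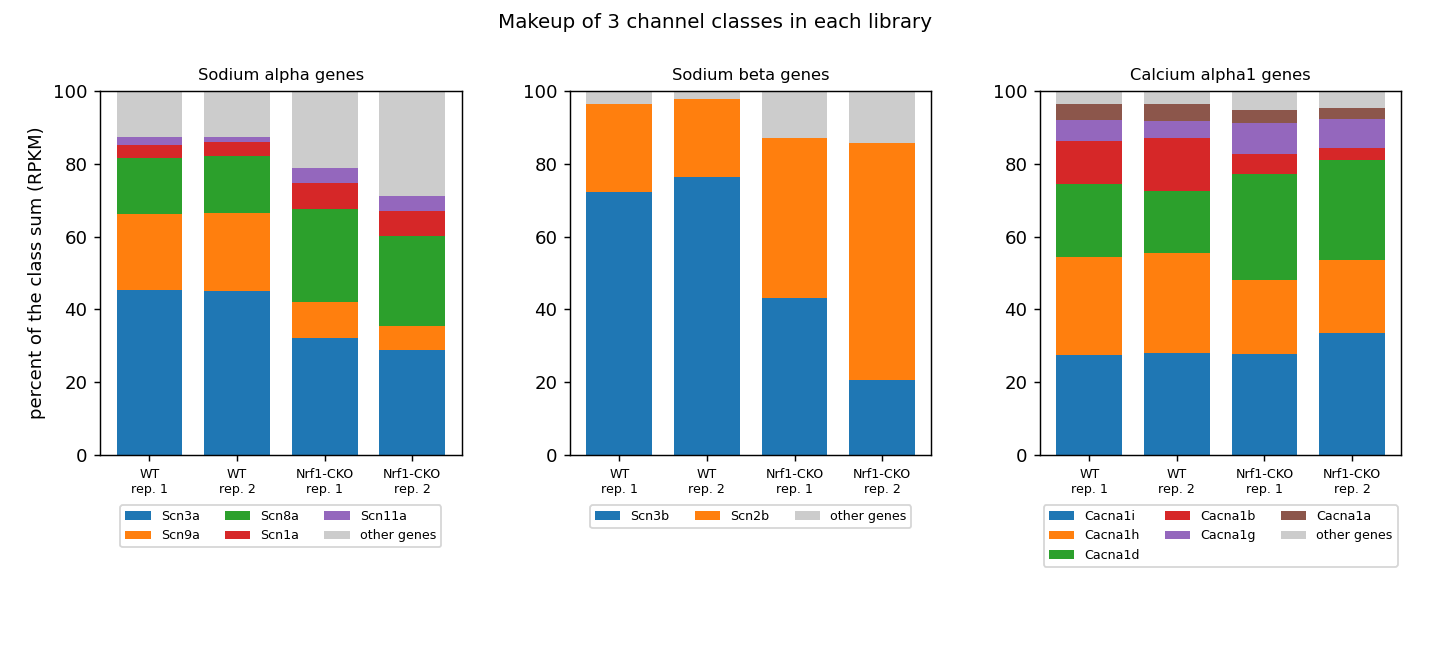
Share of genes in the sodium alpha, sodium beta and calcium alpha1 classes in each library, as percent of the class sum of RPKM, with the remaining genes of a class as a grey band. The blue Scn3b bar goes from 72.3% and 76.4% in WT to 43.2% and 20.7% in the mutant, and the red Cacna1b band from 11.8% and 14.6% to 5.51% and 3.31%.

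Of the 4 sodium beta genes, 1 was called lower, *Scn3b*, and 0 higher, beside 8.04% and 12.8% of all tested genes. At an unadjusted p under 0.05, 0 were higher by edgeR's quasi-likelihood test, 0 were called higher by DESeq2 and by limma, and edgeR's exact test called 2 higher. *Scn3b* had 17.9 and 21.8 CPM in WT and 5.37 and 2.57 CPM in the mutant libraries (1566 and 1617 reads against 446 and 213). Its log2 fold change was -2.32 (SE 0.29, adjusted p = 0.000673), which left it at 20.0% of the WT level, and it was -2.94 without mutant replicate 1, -1.89 without mutant replicate 2 and -1.47 with limma on the deposited log2 values. *Scn2b*, the beta subunit that is joined to the pore by a disulfide bond, had 5.09 and 5.22 CPM in WT and 4.66 and 6.90 CPM in the mutant, so the groups overlapped. *Scn4b* was low, with 10 and 4 reads in WT and 25 and 16 in the mutant, a log2 fold change of 1.52 (SE 0.82, adjusted p = 0.233), and it was one of those called by edgeR's exact test (adjusted p = 0.129). By RPKM, *Scn3b* made up 72.3% and 76.4% of the beta class in WT, and *Scn2b* was the larger part in both mutant libraries, at 43.9% and 65.0% against 43.2% and 20.7% for *Scn3b*.

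The sodium genes that were called moved with the ganglion cell markers and with part of the photoreceptor precursor, amacrine and horizontal cell markers, whose values are given with the calcium genes. All 8 ganglion cell markers, which the study had listed as lower from these libraries, had log2 fold changes from -2.44 to -0.97. Their median was -1.72, beside -1.53 for *Scn3a*, -2.30 for *Scn9a* and -2.32 for *Scn3b*. The part of this marker change in the channel values was not tested.

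Calls among the pore genes of calcium channels were mostly in the higher direction. Their summed level was 32.4 and 35.2 RPKM in WT and 36.1 and 38.1 RPKM in the mutant, 110% of WT, beside 49.6% for the sodium genes. Within it, 1 of the 9 tested genes was called lower, a share near the 8.04% of all tested genes, and 4 were called higher, beside 12.8%. By class, the Cav2 sum was 5.53 and 7.15 RPKM in WT and 3.89 and 3.16 RPKM in the mutant, the Cav1 sum 7.36 and 6.85 against 11.8 and 11.6, and the Cav3 sum 19.5 and 21.2 against 20.4 and 23.3. The groups did not overlap for Cav2 and Cav1 and did overlap for Cav3.

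*Cacna1b*, the pore of the N-type channel of axon terminals, was the 1 alpha1 gene called lower. It had 38.1 and 50.9 CPM in WT and 19.8 and 12.6 CPM in the mutant libraries (3336 and 3772 reads against 1645 and 1039). This was a log2 fold change of -1.46 (SE 0.21, adjusted p = 0.00133), and leaving out 1 library moved it to between -1.82 and -1.17. *Cacna1e*, the pore of the R-type channel, was called higher in the same class. It had 8.05 and 9.18 CPM in WT and 16.1 and 17.6 CPM in the mutant, a log2 fold change of 0.97 (SE 0.13, adjusted p = 0.00095). *Cacna1a*, the pore of the P/Q-type channel of mature synapses, had 15.8 and 19.1 CPM in WT and 14.4 and 13.7 CPM in the mutant. The log2 fold change of -0.31 (SE 0.13, adjusted p = 0.118) was smaller than 1.4-fold. *Cacna1b* thus went from 69.3% and 71.6% of the Cav2 sum to 51.2% and 39.9%, *Cacna1a* from 25.0% and 23.3% to 32.4% and 38.0%, and *Cacna1e* from 5.77% and 5.09% to 16.4% and 22.1%.

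The L-type class was led by *Cacna1d*, a neuronal pore gene that opens at more negative voltages than other L-type channels. It had 82.0 and 75.4 CPM in WT and 132 CPM in each mutant library, which differ from each other by far less than from either WT library. This gave a log2 fold change of 0.75 (SE 0.08, adjusted p = 0.000315), and it stayed between 0.69 and 0.81 without any 1 library. *Cacna1c*, the L-type pore gene of heart, smooth muscle and brain, had 17.6 and 18.5 CPM in WT and 24.3 and 22.1 CPM in the mutant. Both mutant libraries were above both WT libraries, but the log2 fold change of 0.36 (SE 0.10, adjusted p = 0.0368) was under 1.4-fold. *Cacna1f*, the L-type pore gene of photoreceptor and bipolar cell terminals, had 4, 0, 0 and 10 reads and was not tested.

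*Cacna1s*, the voltage sensor of skeletal muscle, had 16 and 6 reads in WT and 79 and 17 reads in the mutant. The library with 79 reads is mutant replicate 1, which also had the highest sum of the muscle markers, 25.7 RPKM against 5.23 in mutant replicate 2. The log2 fold change of *Cacna1s* was 2.10 (SE 0.87, adjusted p = 0.122). It was not called without mutant replicate 1, at 0.62, or without WT replicate 2, at 1.65, and was 2.82 and 2.81 without the other mutant or WT library. Of its annotated exon bases, 20.0% are shared with a predicted gene. The part of muscle RNA in its value was not tested.

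*Cacna1i* and *Cacna1h*, both T-type, were the most abundant pore genes per length in WT retinas. *Cacna1i* had 87.9 and 97.5 CPM in WT and 98.7 and 126 CPM in the mutant, and *Cacna1h* 85.1 and 94.5 against 72.2 and 73.9 CPM. Their log2 fold changes of 0.28 (SE 0.12, adjusted p = 0.128) and -0.30 (SE 0.08, adjusted p = 0.0303) were both smaller than 1.4-fold. *Cacna1g*, the third T-type gene, had 19.4 and 16.1 CPM in WT and 30.7 and 30.0 CPM in the mutant. It was called higher, with a log2 fold change of 0.78 (SE 0.11, adjusted p = 0.00158). By RPKM, *Cacna1i* and *Cacna1h* came to 27.5% and 26.9% of all alpha1 genes in WT replicate 1 and 28.1% and 27.5% in WT replicate 2, and in both mutant libraries *Cacna1d*, at 29.1% and 27.6%, was above *Cacna1h*, at 20.5% and 19.9%.

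**Figure D4:**
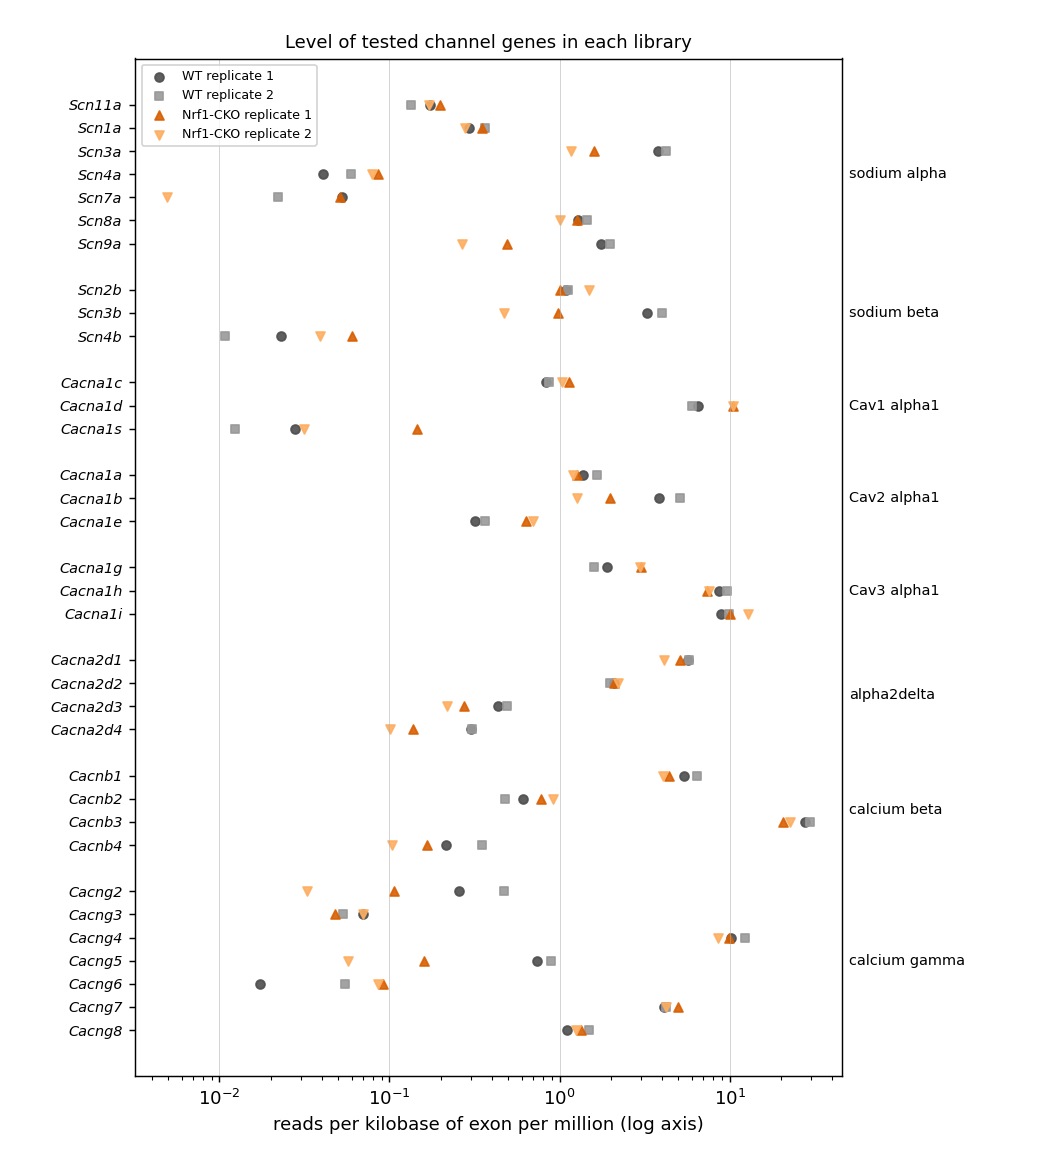
Level of the tested channel genes described here in each library, in RPKM (CPM per kilobase of exon) on a log axis, grouped by class. Cacnb3 is the most abundant of them, and the mutant symbols lie to the left of the WT symbols for Scn3a, Scn9a, Scn3b, Cacna1b, Cacng2 and Cacng5 and to the right for Cacna1d, Cacna1e and Cacna1g.

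The auxiliary calcium channel genes had sums of 59.1 and 65.2 RPKM in WT and 50.2 and 48.8 RPKM in the mutant. Of the 15 tested, 6 were called lower, beside 8.04% of all tested genes, and 1 higher, beside 12.8%. Among the alpha2delta genes, *Cacna2d1* was the most abundant. It had 70.3 and 71.3 CPM in WT and 63.6 and 51.4 CPM in the mutant, and its log2 fold change of -0.30 (SE 0.10, adjusted p = 0.0699) was under 1.4-fold. *Cacna2d2* had 16.7 and 15.7 CPM in WT and 16.6 and 17.6 CPM in the mutant, and the groups overlapped. The 2 less abundant genes were called lower. *Cacna2d3* had 3.81 and 4.26 CPM in WT and 2.40 and 1.91 CPM in the mutant, a log2 fold change of -0.91 (SE 0.24, adjusted p = 0.025). *Cacna2d4*, which serves photoreceptor terminals in the adult retina, had 2.87 and 2.89 CPM in WT and 1.30 and 0.955 CPM in the mutant, a log2 fold change of -1.35 (SE 0.30, adjusted p = 0.0117). With limma on the deposited log2 values, *Cacna2d3* and *Cacna2d4* were at -0.38 and -0.46, and both calls were lost.

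The beta genes encode the cytoplasmic subunits. *Cacnb3* made up 81.9% and 80.3% of the class by RPKM in WT and 79.4% and 81.8% in the mutant. It had 112 and 120 CPM in WT and 82.4 and 91.6 CPM in the mutant, a log2 fold change of -0.41 (SE 0.08, adjusted p = 0.00816), which is under 1.4-fold, though it reached -0.49 and was called without mutant replicate 2. *Cacnb1*, the beta subunit of skeletal muscle that neurons also make, had 24.3 and 29.3 CPM in WT and 19.9 and 18.3 CPM in the mutant. Its log2 fold change of -0.49 (SE 0.12, adjusted p = 0.0183) lies at the fold limit, and it was not called without WT replicate 2, at -0.34, without mutant replicate 2, at -0.43, or with the replicate number as a block, at -0.48. *Cacnb4* had 1.93 and 3.15 CPM in WT and 1.49 and 0.931 CPM in the mutant, a log2 fold change of -1.07 (SE 0.37, adjusted p = 0.0725). Its call rests on single libraries too, since it was lost without WT replicate 2, at -0.67, and without mutant replicate 2, at -0.77, and 16.0% of its exon bases are shared with another gene. *Cacnb2*, the beta subunit of heart and photoreceptor L-type channels, was the 1 auxiliary gene called higher. It had 8.03 and 6.36 CPM in WT and 10.4 and 12.2 CPM in the mutant, a log2 fold change of 0.65 (SE 0.16, adjusted p = 0.0214).

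Of the 8 gamma genes, 7 were tested and 2 of these were called lower, beside 8.04% of all tested genes. Both belong to the AMPA receptor partners, and on the deposited log2 values their differences were smaller, at -0.84 for *Cacng5* and -0.60 for *Cacng2* by limma, with the calls kept. *Cacng5* had 2.83 and 3.41 CPM in WT and 0.614 and 0.218 CPM in the mutant (248 and 253 reads against 51 and 18). Its log2 fold change of -2.90 (SE 0.46, adjusted p = 0.00237) was the furthest from 0 of the 36 genes, and it was -3.83 without mutant replicate 1 and -2.34 without mutant replicate 2. *Cacng2*, the gene of stargazin, had 123 and 192 reads in WT and 49 and 15 reads in the mutant. The log2 fold change of this gene was -2.36 (SE 0.58, adjusted p = 0.0184), and it was -3.45 without mutant replicate 1 and -1.76 without mutant replicate 2. *Cacng4*, also a partner of AMPA receptors and the most abundant gamma gene, had 36.5 and 44.4 CPM in WT and 35.3 and 30.3 CPM in the mutant, a log2 fold change of -0.30 (SE 0.12, adjusted p = 0.105). *Cacng7* and *Cacng8* overlapped between the groups, with 763 to 1013 and 225 to 260 reads per library. *Cacng3* had 11 to 17 reads and *Cacng6* 3, 8, 15 and 14 reads, and *Cacng1*, the gamma subunit of skeletal muscle, had 4 to 8 reads and was not tested. *Cacng5*, *Cacng4* and *Cacng1* are neighbours on chromosome 11, and of these *Cacng5* alone was called.

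The calcium genes called lower moved with the ganglion cell markers, whose median log2 fold change was -1.72, and with some markers of other retinal neurons. Of the photoreceptor precursor markers, *Rxrg*, *Crx* and *Neurod4* were called lower, at -1.19, -0.50 and -0.50 on the log2 scale, and that list summed to 79.6 and 79.3 RPKM in WT and 65.2 and 61.9 in the mutant. Of the amacrine and horizontal cell markers, *Ptf1a* and *Lhx1* were called lower, at -2.35 and -2.29. *Prox1* and *Tfap2a* were called higher, at 0.73 and 1.42. *Lhx1* had only 27 and 26 reads in WT and 9 and 2 in the mutant. The sums of that list overlapped, at 11.5 and 11.9 RPKM in WT and 13.3 and 8.85 in the mutant. The part of these marker changes in the channel values was not tested. Besides the 5 genes called higher, the summed lists of lens, skeletal muscle, macrophage, mesenchyme, endothelium, pericyte and pigment epithelium markers were also higher. In the mutant libraries, the lens sum was 2880 and 1200 RPKM and the muscle sum 25.7 and 5.23 RPKM. Of the 5 genes, *Cacna1s* alone was much higher in mutant replicate 1, at 79 against 17 reads. The mutant libraries had 132 and 132 CPM of *Cacna1d*, 16.1 and 17.6 of *Cacna1e*, 30.7 and 30.0 of *Cacna1g*, and 10.4 and 12.2 of *Cacnb2*. The mesenchyme sum was 18.6 and 13.2 RPKM in WT and 30.2 and 26.3 in the mutant, the pericyte and smooth muscle sum 8.22 and 6.48 against 16.7 and 15.0, and the endothelium sum 32.4 and 32.3 against 38.6 and 36.6. In CPM the endothelium sums overlapped, at 250 and 254 in WT and 253 and 241 in the mutant. The macrophage sum was 31.9 and 29.5 RPKM in WT and 108 and 132 in the mutant, and the pigment epithelium sum 76.9 and 53.7 against 140 and 148. The part of these tissues in the 5 values was not tested.

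Channel genes have long transcripts, and length was set beside the calls. Of the tested genes with a known length, 2592 had at least 8000 exon bases, of which 8.91% were called lower and 12.4% higher, around a median log2 value of -0.0019. Among them were 18 channel genes, with 33.3% called lower, 22.2% higher and a median of -0.28.

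Genes that place or regulate these channels were described from a list of 33 partners, of which 31 were tested. In all, 10 were called lower and 2 higher, beside 8.04% of all tested genes called lower and 12.8% called higher, and the median of the partners on the log2 scale was -0.34. Of the 4 genes for cytoplasmic partners of sodium channels, edgeR, DESeq2 and limma called 0 in either direction. 1 of them had an unadjusted p under 0.05, and their log2 fold changes ran from -0.40 to 0.14. Of the 5 genes that anchor channels at the axon initial segment, *Nfasc* (neurofascin), a cell adhesion molecule of that segment, had 130 and 167 CPM in WT and 68.7 and 53.6 CPM in the mutant, a log2 fold change of -1.28 (SE 0.14, adjusted p = 0.000406). *Nrcam*, its relative, had 177 and 191 CPM in WT and 129 and 110 CPM in the mutant, a log2 fold change of -0.62 (SE 0.09, adjusted p = 0.00177). The ankyrin and spectrin genes *Ank2*, *Ank3* and *Sptbn4* were not called, with log2 fold changes of -0.46, -0.21 and -0.66.

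The sodium leak channel is open at rest and needs several helper subunits. Of its 4 genes, 2 were called lower, beside 8.04% of all tested genes, and these were the helpers *Unc79* and *Fam155a*. The study listed both as lower from these same libraries, so their direction here is not independent evidence of it. *Unc79* had 20.8 and 24.8 CPM in WT and 7.87 and 5.64 CPM in the mutant, a log2 fold change of -1.75 (SE 0.17, adjusted p = 0.000253). *Fam155a* had 8.13 and 10.3 CPM in WT and 3.44 and 2.90 CPM in the mutant, a log2 fold change of -1.54 (SE 0.19, adjusted p = 0.000654), and -0.81 with limma on the deposited log2 values. The pore gene *Nalcn* and *Unc80* were not called, at -0.44 (SE 0.11) and -0.34 (SE 0.15).

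Release site scaffolds hold calcium channels next to synaptic vesicles, and 6 of 7 were called lower, beside 8.04% of all tested genes. *Unc13a*, which primes vesicles, had 53.0 and 60.1 CPM in WT and 21.2 and 14.6 CPM in the mutant, a log2 fold change of -1.66 (SE 0.16, adjusted p = 0.000236). *Bsn* (bassoon) had 70.7 and 83.8 CPM in WT and 37.0 and 24.7 CPM in the mutant, a log2 fold change of -1.32 (SE 0.17, adjusted p = 0.000794). Both *Unc13a* and *Bsn* are in the study's list of lower genes from these same libraries, so their direction is not independent evidence either. *Rims3*, *Rims1*, *Erc2* and *Rims2* had log2 fold changes of -1.22, -0.75, -0.72 and -0.60, and their highest adjusted p was 0.00662. *Rimbp2* was not called, at 0.32 (SE 0.16, adjusted p = 0.212).

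Of the 11 tested regulators of calcium channels, edgeR called 2 higher, beside 12.8% of all tested genes, and 0 lower. In the lower direction, 4 had an unadjusted p under 0.05, and DESeq2, edgeR's exact test and limma called 0. *Gem*, a small GTPase that holds calcium channels back from the surface, had 1.14 and 0.957 CPM in WT and 2.36 and 2.47 CPM in the mutant, a log2 fold change of 1.20 (SE 0.30, adjusted p = 0.0216). *Stac2*, an adaptor of L-type channels, had 3.39 and 3.76 CPM in WT and 6.08 and 4.86 CPM in the mutant, a log2 fold change of 0.61 (SE 0.20, adjusted p = 0.0572). Limma on the deposited log2 values called neither *Gem* nor *Stac2*. *Stac2* was not called without mutant replicate 1, at 0.44, or without WT replicate 1, at 0.54. As with the channels, the scaffold and anchor genes that were called were lower in the mutant, as were the 8 ganglion cell markers. *Gem* and *Stac2* were higher, as were lists of markers from tissues around the retina. The part of these changes was not tested.

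**Figure D5:**
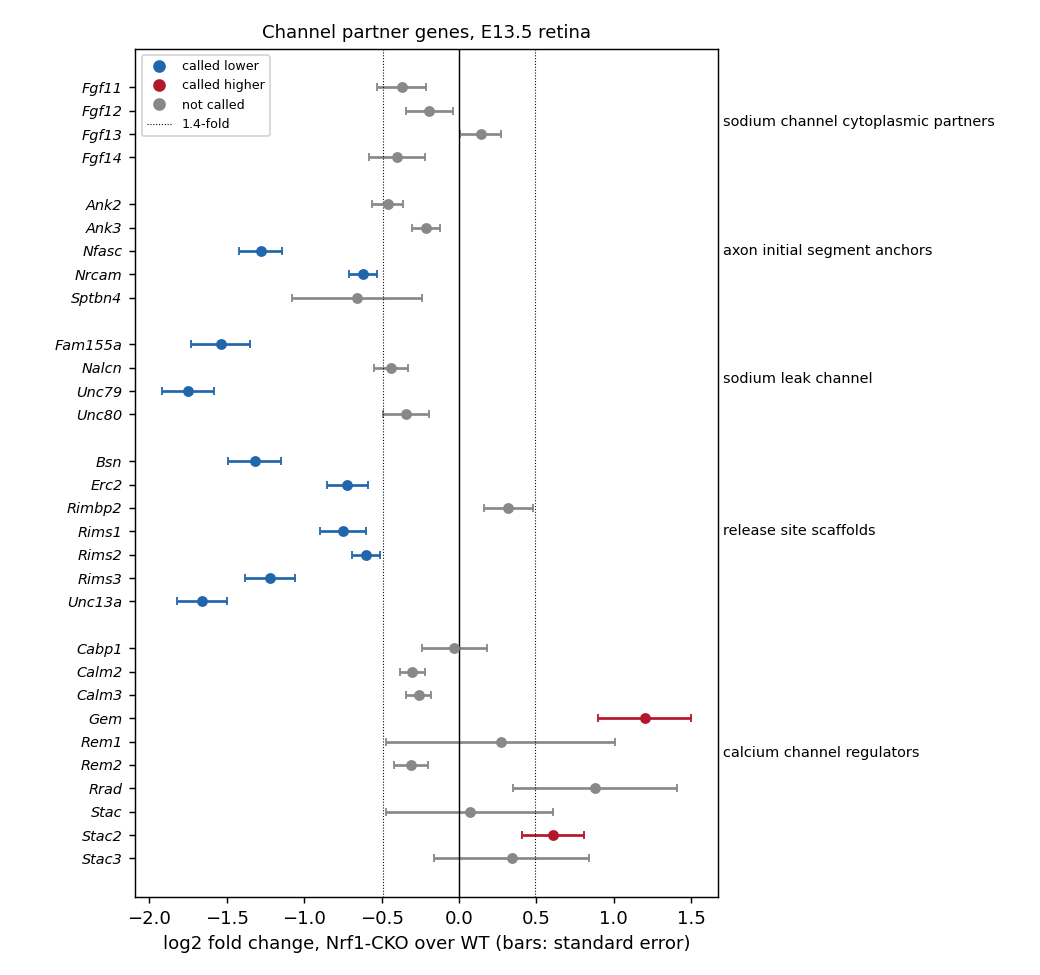
Log2 fold change of the mutant over WT for the tested partner genes described here, grouped by role, with bars of 1 standard error and dotted lines at 1.4-fold. The 6 release site genes called lower run from -0.60 for Rims2 to -1.66 for Unc13a, and the 2 regulators called higher are Gem, at 1.20, and Stac2, at 0.61.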

How the data were processed

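RNA-seq of pooled E13.5 retinas was analysed from 2 WT and 2 Nrf1-CKO libraries, grouped by the genotype and replicate number in their labels. The authors aligned paired-end reads to mm10 with TopHat, given as TopHat2 2.7.2 in the submitters' processing notes, counted them per gene with HTSeq, and deposited the raw counts. The annotation release and the use of strand are not given in the sources used here. The authors also deposited values on a log2 scale, and these served only as an alternative. The submitters' processing notes name DESeq and limma and the study's methods name Cuffdiff, and how the log2 values were made was not settled here. The header line of both tables holds empty cells, and its 4 names were taken in order.

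The rows that HTSeq adds for entries not counted on a gene, 74.0% to 75.0% of all entries per library, stayed out of library sizes and tests. Alignments that were not unique came to 54.6% to 58.0% of all entries. Genes were filtered with filterByExpr at a minimum count of 10, which left 15762 of 24062 genes, and TMM factors set the library sizes. Genotypes were compared over the whole table with edgeR 4.0.16 (quasi-likelihood test, R 4.3.3), with Benjamini-Hochberg adjustment over all tested genes and no further terms. Calls needed a 1.4-fold change and an adjusted p no higher than 0.2, the thresholds of the study, whose own tool needs the reads. The SE is the size of the log2 fold change over the square root of its F statistic. The script was tested on simulated counts. Each library's value is given in place of a mean. The SE covers counting error and the spread of 2 libraries per group, which edgeR moderates over all tested genes. PCR copies are not independent molecules.

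CPM uses TMM-scaled library sizes, and RPKM divides CPM by the merged exon length of the gene in GENCODE M21 (GRCm38), from which coordinates and shared exon bases also come. Promoters come from RefSeq (GRCm38.p6). Channel classes follow gene symbols, and every gene that fits the symbol rule entered the counts and class sums. The results of a few single genes are not reported here. Partner genes were named where they were called with a mean of at least 1 CPM, and those named without a call were chosen after their values were seen. The channel genes, partner list and cell type marker lists were chosen with earlier results of these data known. The alternatives were DESeq2 1.42.0, edgeR's exact test, other scalings and filters, the replicate number as a block, other thresholds, limma 3.58.1 on the deposited log2 values, and each library left out in turn.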

Additional observations from a re-analysis of the deposited data

How the results depend on the processing

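With the replicate number as a block, 9 channel genes were called lower and 5 higher, beside 10 and 5 without it, and *Cacnb1* was the call lost, at -0.48. The deviations of same-numbered libraries from their group means had a correlation of -0.00416 over genes. With 2 libraries per group, that value cannot show whether the numbers pair the libraries. Limma on the deposited log2 values called 6 channel genes lower and 3 higher, 723 and 945 of all genes, and 0 partner genes higher. A test against 1.4-fold called 3 channel genes higher, 743 and 1188 of all genes lower and higher, and 1 partner gene higher. Requiring an adjusted p of at most 0.05 also left 1 partner gene called higher. Leaving out 1 library gave 8 to 10 channel genes called lower and 4 to 5 higher, and 1 to 2 partner genes higher. The cause of these shifts was not tested. The calls of *Scn3a*, *Scn9a*, *Scn3b*, *Cacna1b*, *Cacng2*, *Cacng5*, *Cacna1d*, *Cacna1e* and *Cacna1g* were kept in all alternatives, but limma on the deposited log2 values gave smaller differences for *Cacng5* (-0.84 beside -2.90), *Cacng2* (-0.60 beside -2.36), *Scn3b* (-1.47 beside -2.32) and *Scn9a* (-1.53 beside -2.30). The calls of *Cacna2d3* and *Cacna2d4* were lost only with limma, at -0.38 and -0.46, and that of *Cacnb2* with limma, at 0.41, and against 1.4-fold. The partner genes called lower numbered 8 to 12 over the alternatives, beside 10. Among them, *Nrcam* and *Rims2* lost their call against 1.4-fold (adjusted p = 0.219 and 0.246 from edgeR's test against a fold) and *Rims1* with limma, at -0.44. *Cacna1s* and *Cacnb4* lost theirs in 5 alternatives each, among them limma, at 0.28 and -0.36, and *Cacnb1* in 8. Limma also gave 0.39 for *Gem*, which lost its call. Among genes without a call, the sign changed in *Cacng3* (-0.37 to 0.17 when 1 library was left out), *Scn1a* (-0.24 to 0.10), *Scn2b* (-0.15 to 0.42), *Scn7a* (-2.88 to 0.43) and *Cacng8* (-0.21 to 0.24). *Cacng8* was also at 0.0047 with DESeq2, 0.00015 with the exact test, 0.04 with upper-quartile factors, and 0.01 with at least 10 counts in every library, with the block and with limma. *Nrf1* was at 0.01 with upper-quartile factors. Among genes under about 100 reads per library, *Cacna1s*, *Scn4b* and *Cacng6* had standard errors of 0.82 to 0.92. Those of *Scn11a*, *Scn4a*, *Cacng3* and *Scn7a* were 0.39, 0.56, 0.76 and 0.98. Differences that are small beside these errors could be missed at this depth.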
